A study of Mus musculus with 12 samples.

Results

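The transcripts of 9 genes of interleukin-6 (IL-6) signalling were followed in mouse hearts: the ligands Il6, Il11, Lif and Ctf1, the receptor chains Osmr and Il6st, the transcription factor Stat3, the feedback inhibitor Socs3 and the secreted protease inhibitor Serpina3n. They were picked by symbol, with earlier results of these data known, and matched to their Ensembl identifiers. All 9 were found among the 47729 genes of the count table. Enough reads for a test fell on 8 of them, all but Il11. Gene counts came from 12 libraries, 3 in each of 4 groups of male C57BL/6 mice aged 8 weeks at the start, all carrying pumps under the skin for 28 days. The first group received angiotensin II (Ang II), a peptide that raises blood pressure, and in the last 2 weeks EHP-101 by mouth at 20 mg/kg. EHP-101 is known to act on PPARγ, a nuclear receptor, and on CB2, which binds cannabinoids. The second received Ang II and, in the last 2 weeks, losartan in the drinking water at 0.6 g/L, which blocks the Ang II receptor AT1. The third, Ang II, received the peptide with vehicle, and the Control group received saline, although its sample titles add Ang II control in brackets. The labels name the tissue only as heart, and do not say which chambers were taken or whether replicates were separate animals, so each p-value measures only the spread between these libraries, and whether that spread is between animals is not stated. Libraries of a group differed by more than counting noise, with a chi-square per degree of freedom of at least 11.6 between any pair.

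Cytokines of this family bind a receptor of their own and then share the signalling chain gp130, the product of Il6st, which activates Janus kinases and the transcription factor STAT3. Oncostatin M in the mouse signals mainly through a pair of gp130 and the chain encoded by Osmr. STAT3 induces Socs3, whose protein blocks gp130 and its kinases, so that Socs3 mRNA is widely read as a trace of recent signalling. Serpina3n is a mouse relative of the human inhibitor α1-antichymotrypsin and an acute phase gene. In the heart, gp130 ligands are known for effects on cardiomyocyte survival and growth, and IL-11 for effects on fibroblasts.

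Promoter sequences are shown for 3 genes that the results turn on, Il6, Socs3 and Serpina3n, in the RefSeq build GRCm38.p6, read 5′ to 3′ on the strand of the gene. RefSeq windows from 250 bases before to 50 bases after a transcription start were found for all 9 genes, 10 windows in all, since Il11 has 2 starts. Capitals mark matches to the letters TTCNNNGAA (a STAT element), GGGA followed by any base and TTTCC (an NF-kB site) or TGANTCA (an AP-1 site), searched on both strands. The Il6 sequence is chr5:30012864-30013113 on the plus strand, directly before the start. The Socs3 sequence is chr11:117969452-117969616 on the minus strand, from 250 to 86 bases before the RefSeq start, and lies in an intron of the longer GENCODE transcripts. The Serpina3n sequence is chr12:104406458-104406707 on the plus strand.
Il6: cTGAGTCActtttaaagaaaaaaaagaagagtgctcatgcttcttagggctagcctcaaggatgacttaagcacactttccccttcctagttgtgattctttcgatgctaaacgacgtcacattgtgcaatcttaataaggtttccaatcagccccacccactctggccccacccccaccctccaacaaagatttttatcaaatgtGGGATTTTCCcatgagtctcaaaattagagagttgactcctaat
Socs3: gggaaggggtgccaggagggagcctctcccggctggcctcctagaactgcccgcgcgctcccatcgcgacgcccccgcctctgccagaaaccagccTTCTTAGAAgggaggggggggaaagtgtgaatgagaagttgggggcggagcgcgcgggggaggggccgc
Serpina3n: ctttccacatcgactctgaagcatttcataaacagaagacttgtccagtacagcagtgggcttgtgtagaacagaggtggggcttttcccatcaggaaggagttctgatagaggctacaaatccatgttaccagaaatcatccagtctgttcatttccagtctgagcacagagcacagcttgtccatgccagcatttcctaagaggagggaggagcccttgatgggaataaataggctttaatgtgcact
The STAT element was found in 1 of the 10 windows, that of Socs3, where it begins at position -154 relative to the start. Of the 32851 RefSeq windows of the same length, 8.30% held it. The Il6 window held an NF-kB site at position -44, against 0.411% of all windows, and an AP-1 site at position -249, against 7.81%. AP-1 letters were also present in the windows of Lif at -228, of the second Il11 start at -98 and of Osmr at 4. The Serpina3n window held none of these letters, which says nothing of other stretches of the gene.

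Each library held 22155418 to 24040516 counted reads. Cardiomyocyte markers were abundant in all of them, with 6 of 6 detected and a summed level of 38029 to 45221 CPM (per-million counts) with EHP-101, 34650 to 42628 with losartan, 32452 to 39265 with Ang II alone and 29520 to 43616 in Control. Control replicate 2 stood apart, with the lowest scaling factor of the 12 libraries, 0.839. Its chi-square per degree of freedom was 111 and 144 to the other Control libraries, which were at 11.6 from each other. Losartan replicate 1 was at 49.0 and 57.8 from the rest of its group, which were at 16.6 from each other. Atrial markers, all 6 of which were detected, ran from 533 to 1142 CPM in sum with EHP-101, 67.5 to 2098 with losartan, 1574 to 2835 with Ang II alone and 290 to 1862 in Control. Hepatocyte markers, a possible source of acute phase transcripts, summed to at most 0.842 CPM outside Control replicate 1, where they reached 30.4 CPM. Levels below are CPM with library sizes scaled by TMM, and errors of means are SD with n = 3.

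Per kilobase of exon, which allows genes to be compared, the receptor chain and transducer shared by the family stood far above the ligands. Il6st averaged 24.5 and Stat3 19.5 CPM per kilobase under Ang II, against 21.6 and 18.4 in Control. Serpina3n had the highest average of the 9 genes under Ang II, 43.8 CPM per kilobase, against 7.75 in Control, where it ranked below Il6st and Stat3. Socs3 (4.26 against 2.49), Osmr (3.71 against 2.17) and Ctf1 (2.12 against 2.81) lay between. Il6 averaged 0.916 under Ang II against 0.0697 CPM per kilobase in Control, Lif 0.403 against 0.263, and Il11 0.183 against 0.0134. In bulk tissue, fewer cells of a type and less RNA per cell cannot be told apart, and this touches every level given here.

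**Figure D1:**
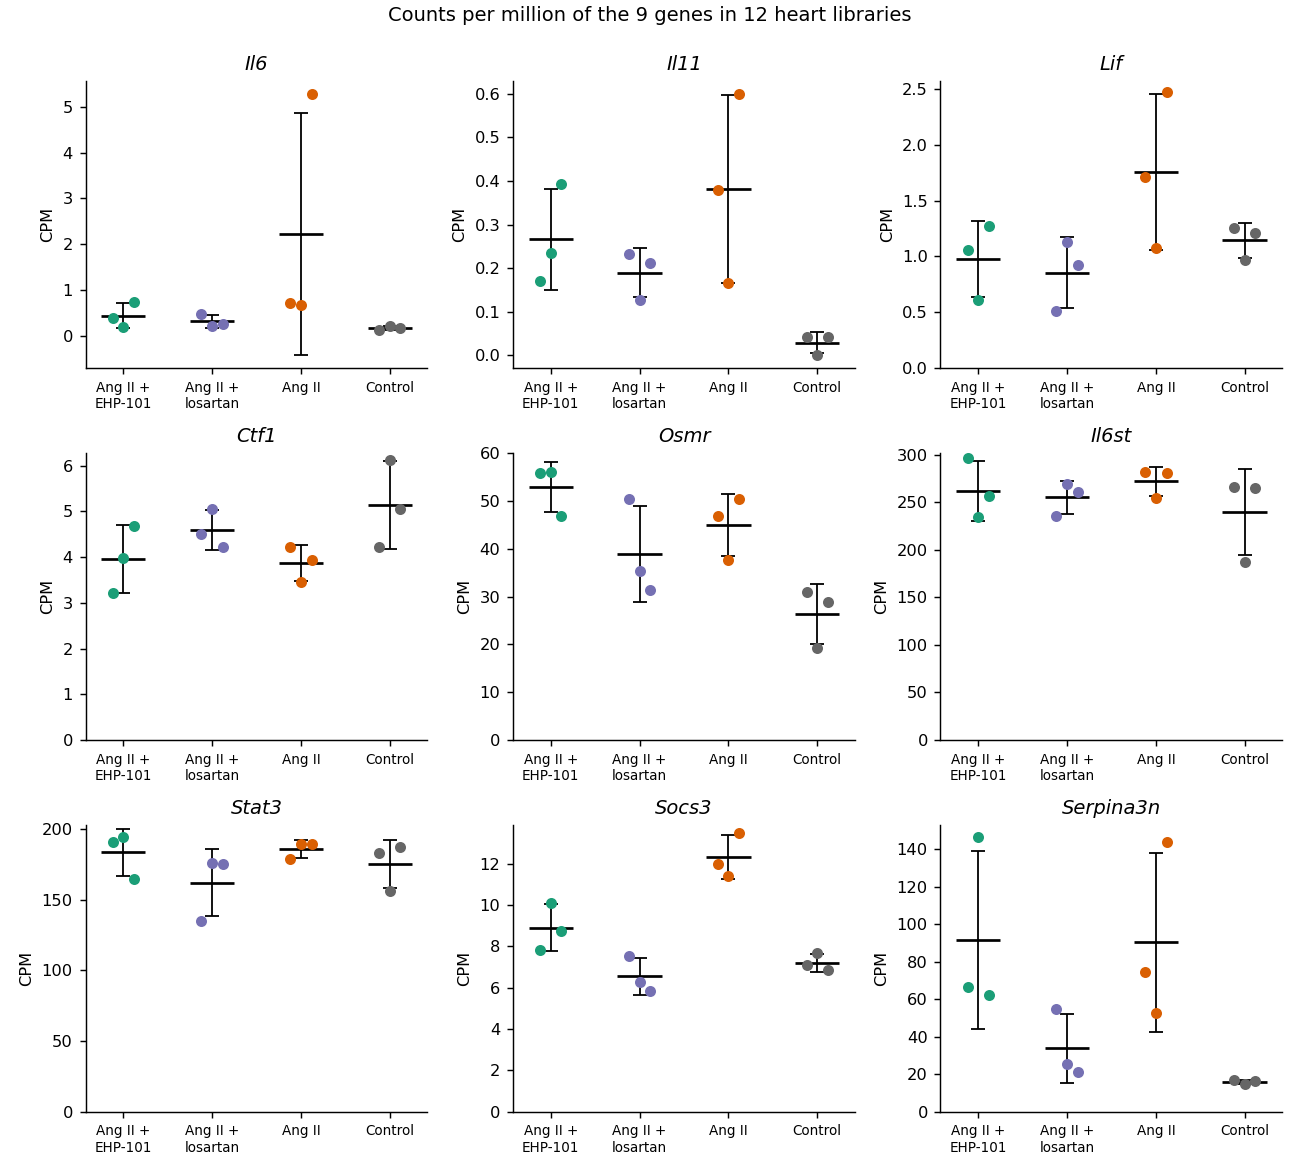
CPM of each of the 9 genes (vertical axes, linear from 0) in the 4 groups (horizontal axes), with 1 point per library, a bar at the group mean and whiskers of 1 SD. Socs3 sits at 11.4 CPM or more in the 3 Ang II libraries and at 10.1 CPM or less in the other 9, while 1 library in each of the Ang II groups stands high in Serpina3n.

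Ang II against Control asks what the infusion did to the family. Serpina3n and Socs3 were the members that passed, 2 of 8 tested, both higher (edgeR quasi-likelihood test, Benjamini-Hochberg adjusted p under 0.05 over all genes). Of all 15336 tested genes, 0.541% passed in either direction, 0.515% as higher and 0.0261% as lower. Without adjustment, 4 of 8 members had a p under 0.05, where 17.6% of all genes did. The median log2 fold change of the 8 members was 0.69, and that of all tested genes was -0.00068. The members, and the gene lists below, were chosen with earlier results of these data known. Their counts set beside all genes, here and below, are therefore no test of the family. The libraries of the groups did not overlap for 4 members that were higher, Il6, Osmr, Socs3 and Serpina3n, where 12.3% of all genes did so, and for 1 that was lower, Ctf1, where 10.3% did so.

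Among the ligands, Il6 (chr5:30013114-30019981, plus strand, GRCm38) encodes the founding cytokine of the family. Its level was 0.721, 0.665 and 5.28 CPM in the 3 Ang II libraries, against 0.125, 0.215 and 0.167 CPM in Control. All 3 Ang II libraries lay above all 3 Control libraries, and replicate 3 held 141 of the Ang II reads, beside 19 and 16 in the others and 3 or 4 in each Control library. The log2 fold change was 3.71 ± 0.87 (SE), which missed the threshold in edgeR (adjusted p = 0.0933). Without Ang II replicate 3 it was 2.03 (adjusted p = 0.407 in edgeR), while leaving out Ang II replicate 2 made it pass (adjusted p = 0.0416). DESeq2 also called it (adjusted p = 0.00182). Under EHP-101, Il6 was at 0.381, 0.187 and 0.744 CPM, and under losartan at 0.465, 0.209 and 0.253 CPM. Group means were 0.437 ± 0.283 CPM with EHP-101, 0.309 ± 0.137 with losartan, 2.22 ± 2.65 with Ang II alone and 0.169 ± 0.045 in Control. From the highest to the lowest the order was Ang II, EHP-101, losartan and Control, and each group overlapped with its neighbours in that order.

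Il11 (chr7:4772373-4782859, minus strand), whose product acts on fibroblasts, gave too few reads for the test. It had 10, 4 and 16 reads in the Ang II libraries, against 1, 0 and 1 in Control. EHP-101 libraries held 4, 5 and 9 reads and losartan libraries 5, 3 and 5. Every library with Ang II therefore held more Il11 reads than any Control library. At these depths the Ang II to Control ratio was 12.9, with an exact 95% interval of 3.28 to 112 that covers counting error only. The same ratio to Control was 8.82 for EHP-101, with an interval of 2.11 to 78.4, and 6.25 for losartan, with an interval of 1.41 to 57.0. Set against Ang II, the ratio was 0.682 under EHP-101, with an interval of 0.358 to 1.26, and 0.483 under losartan, with an interval of 0.231 to 0.955. With no filter on low counts, Il11 entered the edgeR fit and passed for Ang II against Control (adjusted p = 0.0342), with a log2 fold change of 3.46 ± 0.82 that depends on the prior count. In that fit the adjusted p was 0.120 for EHP-101 against Control, 0.664 for losartan against Control, 0.892 for EHP-101 against Ang II and 0.849 for losartan against Ang II. The counting intervals above hold no spread between libraries.

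Lif (chr11:4257557-4272514, plus strand) encodes leukemia inhibitory factor. It was at 1.71, 1.08 and 2.47 CPM under Ang II, against 1.25, 0.969 and 1.21 CPM in Control, and the groups overlapped. Ctf1 (chr7:127712736-127718192, plus strand) encodes cardiotrophin-1, a gp130 ligand named for its action on cardiomyocytes. It was the one member with a negative difference, at 4.21, 3.45 and 3.94 CPM under Ang II against 4.22, 6.14 and 5.05 CPM in Control. The closest libraries, at 4.21 and 4.22 CPM, nearly met. The log2 fold change was 0.61 ± 0.37 for Lif (edgeR adjusted p = 0.392) and -0.40 ± 0.19 for Ctf1 (adjusted p = 0.299). Ctf1 shares 87 exon bases with Ctf2 on the opposite strand, and since the kit keeps no strand, reads there cannot be assigned to either.

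Of the receptor chains, Osmr (chr15:6813577-6874969, minus strand) was at 46.8, 37.8 and 50.3 CPM under Ang II, against 30.9, 19.2 and 28.9 CPM in Control. Every Ang II library lay above every Control library. The log2 fold change of 0.77 ± 0.21 missed the edgeR threshold (adjusted p = 0.128), while DESeq2 called it (adjusted p = 0.0269). Il6st (chr13:112464070-112510086, plus strand) was at 282, 255 and 280 CPM under Ang II, against 267, 187 and 265 CPM in Control. These groups overlapped, and the low Control value was that of replicate 2. Stat3 (chr11:100885098-100939540, minus strand) was at 179, 189 and 189 CPM under Ang II, against 183, 156 and 187 CPM in Control. The log2 fold changes were 0.18 ± 0.15 for Il6st (edgeR adjusted p = 0.529) and 0.08 ± 0.14 for Stat3 (adjusted p = 0.767), and 72 exon bases of Stat3 are shared with Stat5a.

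Socs3 (chr11:117966079-117970047, minus strand) rose 1.71-fold. It was at 12, 11.4 and 13.5 CPM under Ang II, against 7.10, 7.70 and 6.84 CPM in Control. The Ang II libraries were tight and lay clear of Control, with means of 12.3 ± 1.07 and 7.21 ± 0.438 CPM and a log2 fold change of 0.77 ± 0.15 (edgeR adjusted p = 0.0436). The call lay close to the threshold. It was lost without Ang II replicate 1 (adjusted p = 0.155), Ang II replicate 3 (0.224), Control replicate 1 (0.117), 2 (0.0857) or 3 (0.102), EHP-101 replicate 1 (0.0569) or 3 (0.0651), or losartan replicate 2 (0.0716), with log2 fold changes of 0.71 to 0.82 throughout. DESeq2 gave an adjusted p of 0.0006, and the fit with the replicate number as a block 0.0799.

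Serpina3n (chr12:104406729-104414329, plus strand) rose 5.65-fold. It was at 74.6, 52.7 and 144 CPM under Ang II, against 16.9, 14.9 and 16.2 CPM in Control. The Control libraries were nearly level, and the lowest Ang II library was above the highest of them. The log2 fold change was 2.50 ± 0.45 (edgeR adjusted p = 0.0334). It was 2.0 without Ang II replicate 3 (adjusted p = 0.145), and the call was also lost without Ang II replicate 1 (0.0862) or Control replicate 1 (0.120), 2 (0.211) or 3 (0.104), and with the replicate number as a block (0.105).

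**Figure D2:**
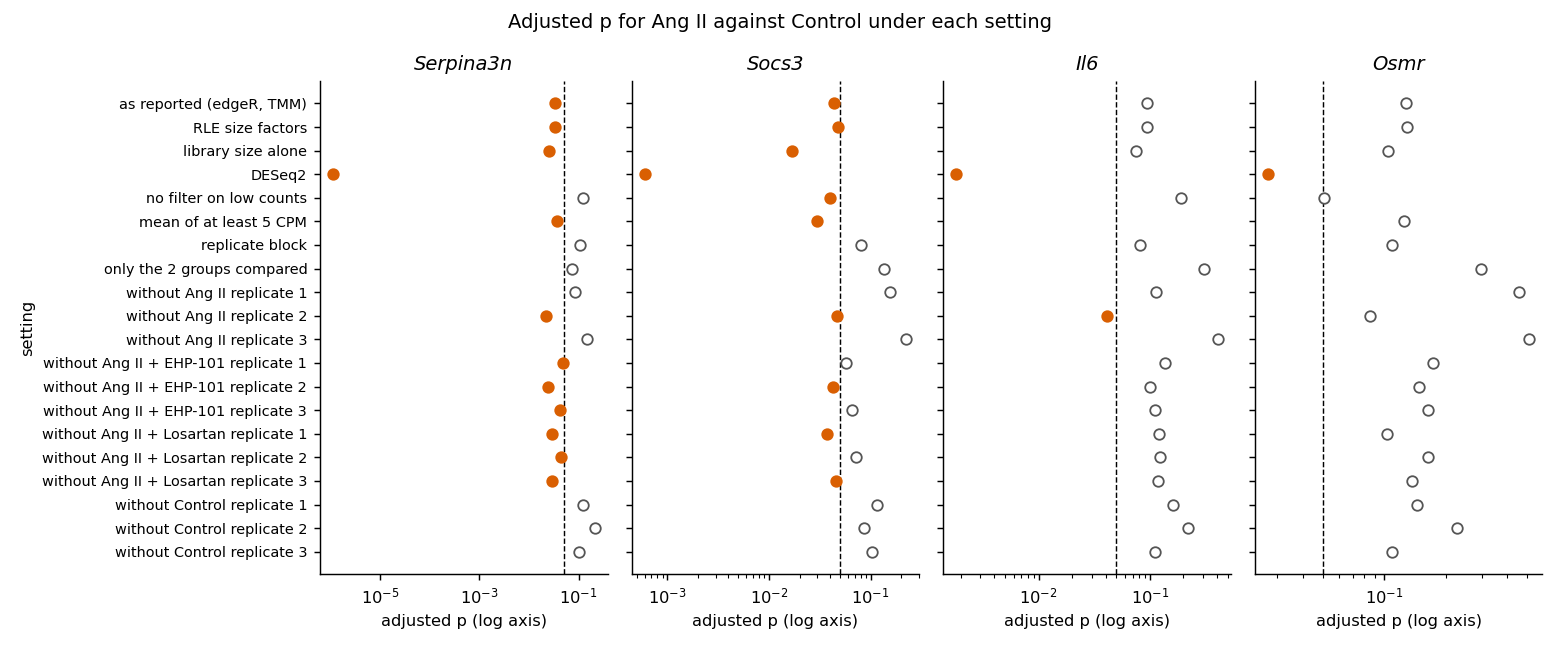
Adjusted p (horizontal log axis) for Ang II against Control under each analysis setting (rows) for Serpina3n, Socs3, Il6 and Osmr, with the threshold of 0.05 as a dashed line. Filled points are past it. Socs3 and Serpina3n lie past the line as reported and short of it without any 1 Control library, while Il6 lies past it with DESeq2 and without Ang II replicate 2 and Osmr with DESeq2.

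The comparisons of EHP-101 and of losartan with Ang II ask what the treatments did to animals that kept receiving the peptide. They share the Ang II libraries, so their values are set side by side. For EHP-101 against Ang II, 0 of 8 members passed in edgeR, as did 0 of all genes (0%). At an unadjusted p under 0.05 the count was 3 of 8, where 7.22% of all genes passed. DESeq2 called 0 members and 61 of all genes. For losartan against Ang II, edgeR again called 0 members and 0 of all genes (0%). Here 4 of 8 had an unadjusted p under 0.05, where 8.41% of all genes did. DESeq2 called 2 members, Il6 and Socs3, and 108 of all genes. The median log2 fold change of the members was -0.04 under EHP-101 and -0.56 under losartan, against medians of 0.00025 and 0.0030 over all tested genes.

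Socs3 had the smallest p of the members in both comparisons. It was at 7.82, 10.1 and 8.76 CPM under EHP-101 and at 7.53, 6.27 and 5.82 CPM under losartan, against the 11.4 to 13.5 CPM of Ang II. Neither treated group overlapped with Ang II. The log2 fold change was -0.47 ± 0.15 for EHP-101 (edgeR adjusted p = 0.438) and -0.91 ± 0.15 for losartan (edgeR adjusted p = 0.166, unadjusted p = 3.81e-05). The losartan difference passed with DESeq2 (adjusted p = 9.51e-05) and in edgeR with no filter on low counts (0.0286). Group means were 8.89 ± 1.14 CPM with EHP-101, 6.54 ± 0.886 with losartan, 12.3 ± 1.07 with Ang II alone and 7.21 ± 0.438 in Control. From the highest to the lowest the order was Ang II, EHP-101, Control and losartan. Losartan overlapped with Control, whereas the other neighbours did not overlap.

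Serpina3n differed between the treatments in its values. It was at 66.6, 147 and 62.3 CPM under EHP-101, 54.9, 25.2 and 21.2 CPM under losartan and 52.7 to 144 CPM under Ang II. The EHP-101 libraries covered the same span as the Ang II libraries, while losartan replicate 1 alone reached into it. The log2 fold change to Ang II was 0.02 ± 0.42 for EHP-101 (edgeR adjusted p = 0.997) and -1.42 ± 0.43 for losartan (adjusted p = 0.350). Without Ang II replicate 3, the losartan value was -0.92. EHP-101 was not tested against losartan. Group means were 91.9 ± 47.5 CPM with EHP-101, 33.8 ± 18.4 with losartan, 90.5 ± 47.7 with Ang II alone and 16.0 ± 1.05 in Control. From the highest to the lowest the order was EHP-101, Ang II, losartan and Control. Losartan and Control did not overlap, while the other neighbours in level did.

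Il6 had log2 fold changes of -2.33 ± 0.75 for EHP-101 (edgeR adjusted p = 0.462) and -2.85 ± 0.79 for losartan (adjusted p = 0.316) to Ang II. The losartan libraries lay below all Ang II libraries, and EHP-101 replicate 3, at 0.744 CPM, lay above 2 of the 3. The losartan difference passed with DESeq2 (adjusted p = 0.0489). Without Ang II replicate 3, the values were -0.65 for EHP-101 and -1.17 for losartan. Lif was at 1.06, 0.608 and 1.27 CPM under EHP-101 and 0.511, 1.13 and 0.928 CPM under losartan, and both groups overlapped with Ang II. Its log2 fold change to Ang II was -0.84 ± 0.37 for EHP-101 and -1.03 ± 0.38 for losartan, with edgeR adjusted p of 0.666 and 0.456.

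Osmr, Il6st, Stat3 and Ctf1 remained. Osmr was at 55.9, 56.0 and 46.8 CPM under EHP-101 and 50.3, 35.3 and 31.4 CPM under losartan, and its log2 fold changes to Ang II were 0.23 ± 0.20 and -0.21 ± 0.20. For Il6st, Stat3 and Ctf1 the values lay between -0.20 and 0.25 in both comparisons. Il6st ran from 234 to 297 CPM under EHP-101 and 236 to 269 with losartan. Stat3 was at 165 to 195 CPM under EHP-101 and 135 to 176 with losartan, all 3 losartan libraries being below the lowest Ang II library. Ctf1 was at 3.21 to 4.68 CPM under EHP-101 and 4.22 to 5.06 with losartan, where it did not overlap with Ang II. In all, losartan libraries were separate from Ang II for 3 members that were lower (Il6, Stat3 and Socs3), where 10.5% of all genes were, and 1 that was higher (Ctf1), where 9.22% were. EHP-101 libraries were separate for 1 lower member, Socs3, where 9.74% of all genes were, and for 0 higher members, where 7.01% were.

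Set against Control, which both comparisons share, Serpina3n was the one member that edgeR called under EHP-101, as higher. That was 1 of 8, where 0.398% of all genes passed, 0.3% as higher and 0.0978% as lower. The Serpina3n log2 fold change was 2.52 ± 0.45, or 5.73-fold (edgeR adjusted p = 0.0394). That call was lost without EHP-101 replicate 1 (0.0546), 2 (0.114, log2 fold change 2.01) or 3 (0.0697), Ang II replicate 1 (0.0635), losartan replicate 2 (0.0533), or Control replicate 1 (0.133), 2 (0.175) or 3 (0.103), with no filter on low counts (0.120), and with the replicate number as a block (also 0.103). Osmr came next under EHP-101, at 52.9 ± 5.24 CPM against 26.3 ± 6.28 CPM in Control, a log2 fold change of 1.0 ± 0.21 (edgeR adjusted p = 0.0614). It passed without losartan replicate 1 (0.0450), with no filter on low counts (0.0067) and with DESeq2 (0.000956). EHP-101 libraries lay above all Control libraries for Osmr, Socs3 and Serpina3n, 3 of 8, where 10.7% of all genes did. They lay below them for 0 members, where 10.4% did. For Socs3 the closest libraries, at 7.82 and 7.70 CPM, nearly met. Over the alternative settings its log2 fold change was 0.20 to 0.39, with an adjusted p of at least 0.287 in edgeR or DESeq2.

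For losartan against Control, edgeR called 0 of 8 members and 0 of all genes (0%). Under an unadjusted p of 0.05 there were 2 of 8, where 10.7% of all genes passed, and DESeq2 called 0 members. Osmr and Serpina3n were above all Control libraries, 2 of 8, where 8.27% of all genes were, and 0 members were below them, where 7.09% were. The Serpina3n log2 fold change was 1.08 ± 0.44 and that of Osmr 0.56 ± 0.21, both with an edgeR adjusted p of 0.456. Without losartan replicate 1, the Serpina3n value was 0.54. Socs3 was at -0.14 ± 0.15 (adjusted p = 0.674).

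**Figure D3:**
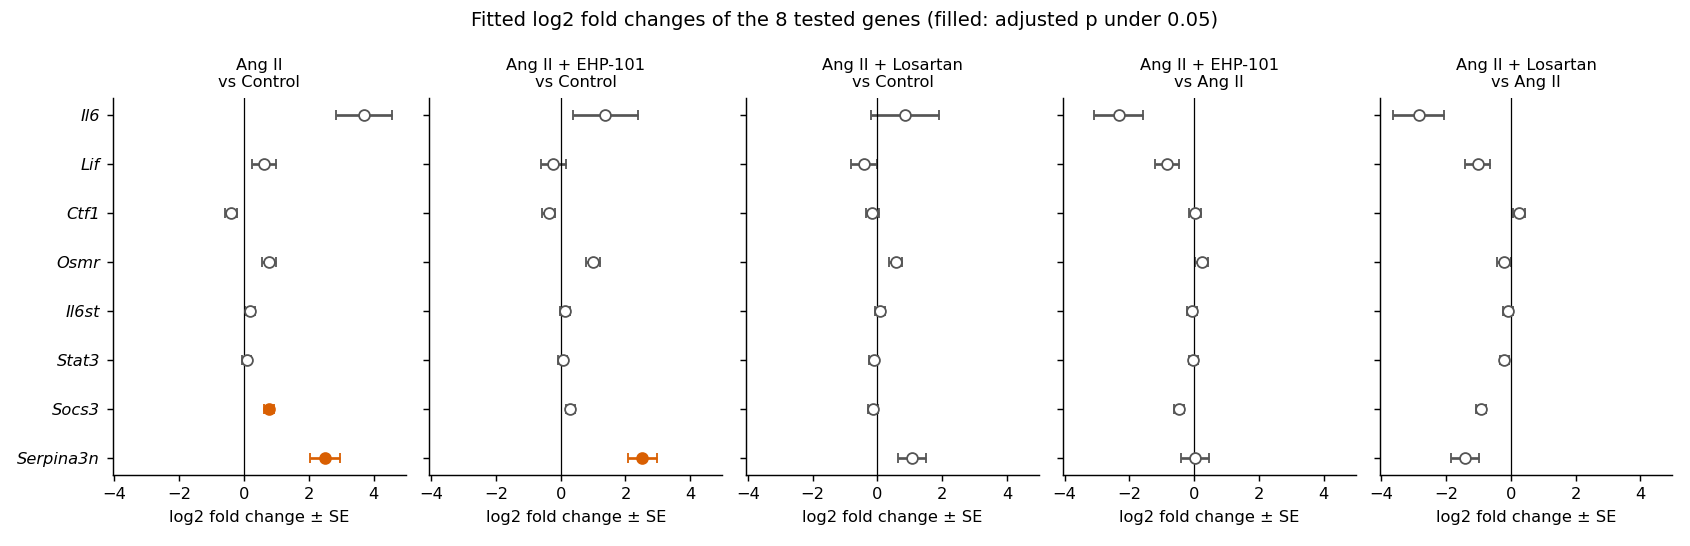
Fitted log2 fold change (horizontal axis) with its SE for the 8 tested genes (rows) in each comparison (panels), filled where the edgeR adjusted p was under 0.05. The filled points are Serpina3n and Socs3 for Ang II against Control and Serpina3n for EHP-101 against Control.

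Single libraries carried much of the spread within groups. Ang II replicate 3 was the highest of all 12 libraries in Il6 (5.28 CPM), Lif (2.47) and Socs3 (13.5), the highest of its group in Serpina3n (144) and the highest of all in Il11 (16 reads). In the same library the acute phase genes Saa3 and Hp were at 10.6 and 46.7 CPM, against at most 1.16 and 15.0 CPM in the other Ang II libraries. EHP-101 replicate 2 and losartan replicate 1 were highest in Serpina3n in their groups. Their Il6 was at 0.187 CPM, the lowest of the EHP-101 group, and 0.465 CPM, the highest of the losartan group. Both libraries stood out in the metallothionein genes Mt1 and Mt2 and the transcription factor gene Cebpd, which were chosen after their values were seen. Like Saa3 and Hp, these genes belong to the list of STAT3 target and acute phase genes read below. They are also known as glucocorticoid and stress responsive. Mt2 was at 167 CPM in that EHP-101 library and 119 CPM in that losartan library, against 9.81 to 32.4 CPM in the other 10. Mt1 was at 241 and 230 CPM there, against 51.9 to 99.6 elsewhere, and Cebpd at 20.1 and 18.0 CPM, against 4.13 to 9.26. The part of these genes in the Serpina3n values was not tested.

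**Figure D4:**
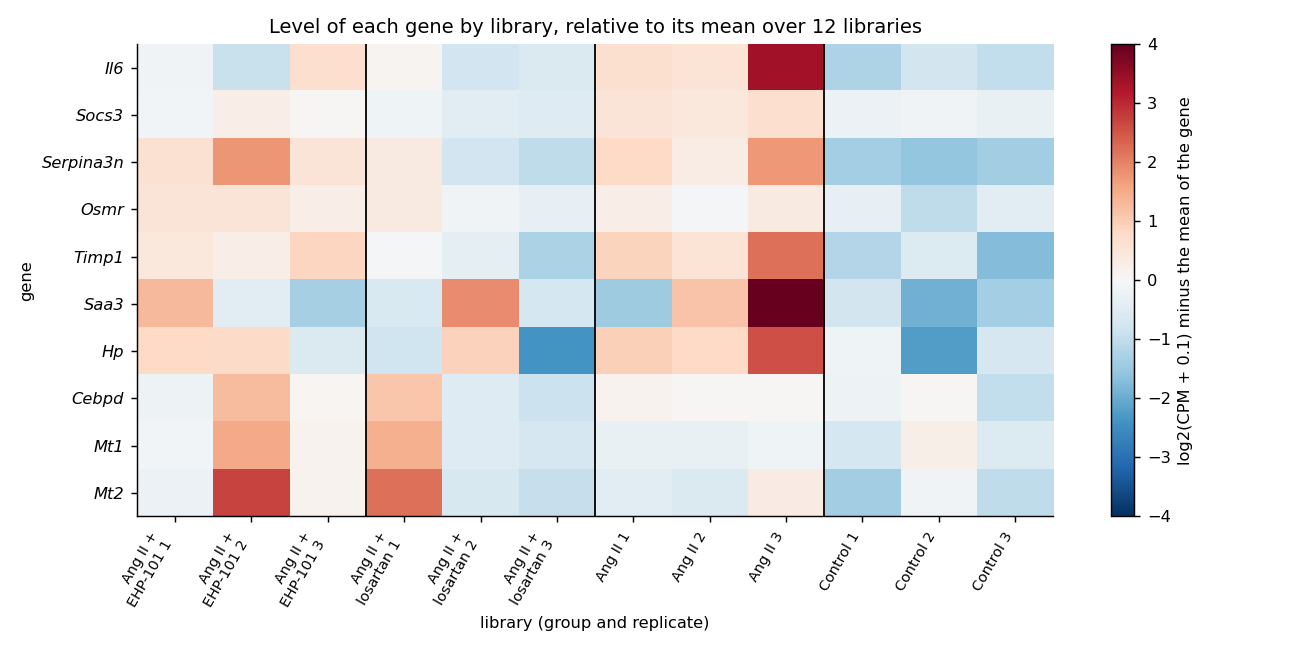
Level of each gene (rows) in each library (columns) as log2(CPM + 0.1) minus the mean of the gene over the 12 libraries, red for higher and blue for lower. Ang II replicate 3 is red for Il6, Serpina3n, Saa3 and Hp together, whereas EHP-101 replicate 2, with Serpina3n at 147 CPM, is red for Mt1, Mt2 and Cebpd and not for Il6.

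Markers of other cells moved with some of these differences. Fibroblast markers, all 6 detected, summed to 1752 to 2462 CPM under Ang II, against 1055 to 1498 CPM in Control. All 6 were higher on average, 5 without overlap, where 12.3% of all genes were, and 5 had an unadjusted p under 0.05, where 17.6% did, although edgeR called 0 of them. They summed to 1611 to 1834 CPM under EHP-101 and 1128 to 1772 with losartan. Of the 7 macrophage and monocyte markers, edgeR called 1 higher under Ang II than in Control, where 0.515% of all genes were. This was the chemokine receptor gene Ccr2 (log2 fold change 2.04, adjusted p = 0.0390), named after its values were seen. Over the 7 markers the median log2 fold change was 0.34, and 2 were higher without overlap, where 12.3% of all genes were. An unadjusted p under 0.05 was found for 1 of them, where 17.6% of all genes had it. Their sum was 79.0 to 156 CPM with EHP-101, 142 to 181 with losartan, 176 to 242 with Ang II alone and 135 to 180 in Control. The 7 macrophage and monocyte markers were all lower on average with EHP-101 than with Ang II alone, 5 without overlap, where 9.74% of all genes were, and 6 at an unadjusted p under 0.05, where 7.22% were. Smooth muscle markers, all 5 detected, summed to 435 to 599 CPM with EHP-101, 339 to 698 with losartan, 578 to 855 with Ang II alone and 348 to 496 in Control, and their median log2 fold change for Ang II against Control was 1.03. Adipocyte markers summed to 15.6 to 42.3 CPM with EHP-101, 5.19 to 71.7 with losartan, 20.3 to 103 with Ang II alone and 3.88 to 26.8 in Control, with a median of 1.52 over the 4 that were tested. All 6 atrial markers were lower on average with EHP-101 than with Ang II alone, 6 without overlap, where 9.74% of all genes were. With losartan all 6 were also lower on average than with Ang II alone, 2 without overlap, where 10.5% of all genes were. In edgeR, 0 had an unadjusted p under 0.05 with EHP-101 and 1 with losartan, where 7.22% and 8.41% of all genes did. The 5 neutrophil markers were low but moved with Serpina3n within the treated groups. Their sum was 14.0 CPM in EHP-101 replicate 2, against 5.88 and 3.81 in the rest of that group, and 17.3 CPM in losartan replicate 1, against 5.65 and 5.31. It was 8.22 to 13.4 CPM with Ang II alone and 4.13 to 9.94 in Control, where the order differed in part from that of Serpina3n. The sum was 12.9 CPM in Ang II replicate 3, which was highest in Serpina3n, and 13.4 CPM in replicate 1. In Control it was 9.47 CPM in replicate 2, which was lowest in Serpina3n, and 4.13 CPM in replicate 3. Whether these shifts account for any part of the member values was not tested.

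Outside the members, 13 other ligands and receptors of the family were read from the same fit, 8 of which were tested. A further gene of the list is not reported here, and the counts and smallest p-values that follow are over the list without it. For Ang II against Control, 0 of these 8 passed in edgeR, where 0.541% of all genes did. An unadjusted p under 0.05 was found for 1, where 17.6% of all genes had it, and DESeq2 called 0. Their median log2 fold change was 0.11, with 4 positive and 4 negative values. The smallest p-values belonged to Il27ra, a receptor chain for IL-27 (0.49 ± 0.22, edgeR adjusted p = 0.270), to Clcf1, which encodes cardiotrophin-like cytokine (0.58 ± 0.30, adjusted p = 0.325), and to Cntfr, a receptor for ciliary neurotrophic factor (0.51 ± 0.41, adjusted p = 0.507). Clcf1 shares 311 exon bases with another annotated gene. The co-receptor gene Lifr, through which LIF and cardiotrophin-1 signal with gp130, averaged 58.0 CPM under Ang II and 59.1 CPM in Control, and Il6ra, the receptor gene for IL-6 itself, 8.96 and 7.47 CPM. Both were named for their place in the pathway, outside the rule for named genes.

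Of 13 further Janus kinase, STAT and feedback genes, all tested, edgeR called 0 for Ang II against Control, beside 0.541% of all genes. An unadjusted p under 0.05 was found for 0, where 17.6% of all genes had it, and DESeq2 called 0. Their median log2 fold change was 0.14. The smallest p-values belonged to the feedback gene Socs2 (0.32 ± 0.18, adjusted p = 0.361), the phosphatase gene Ptpn2 (0.21 ± 0.12, adjusted p = 0.365) and the kinase gene Jak1 (-0.21 ± 0.14, adjusted p = 0.429). Of 27 STAT3 target and acute phase genes, 23 were tested. For Ang II against Control edgeR called 1 higher, Timp1, an inhibitor of matrix metalloproteinases, where 0.515% of all genes were called higher. An unadjusted p under 0.05 was found for 9 of the 23, where 17.6% of all genes had it. The list had 19 positive and 4 negative values, a median log2 fold change of 0.56 and 9 members without overlap, all higher, where 12.3% of all genes were.

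Timp1 (chrX:20870166-20874735, plus strand) was at 22.6, 18.1 and 56.4 CPM under Ang II, against 5.39, 8.29 and 3.63 CPM in Control, and Ang II replicate 3 was again the highest library. It rose 5.65-fold (log2 fold change 2.50 ± 0.45, edgeR adjusted p = 0.0299). The call was lost without Ang II replicate 1 (0.0626) or 3 (0.116, log2 fold change 1.84), EHP-101 replicate 1 (0.0546), or Control replicate 1 (0.122), 2 (0.126) or 3 (0.103), and with the replicate number as a block (0.0971). Under EHP-101 Timp1 was at 14.7 to 22.1 CPM and with losartan at 5.06 to 11.5 CPM. Its log2 fold change to Ang II was -0.87 ± 0.41 (edgeR adjusted p = 0.724) and -1.90 ± 0.43 (adjusted p = 0.226), and DESeq2 called the losartan value (adjusted p = 0.00326). Without Ang II replicate 3 these values were -0.20 and -1.23. Saa3, at 0.114, 1.16 and 10.6 CPM under Ang II against 0.0538 to 0.251 CPM in Control, had a log2 fold change of 4.68 ± 1.52 that rested on 1 library (edgeR adjusted p = 0.192). Hp, the haptoglobin gene, was at 2.48 ± 0.82 (adjusted p = 0.199).

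Serpina3n lies in a cluster of close paralogs on chromosome 12, and short reads could be split between them. Of 10 paralogs, 5 were tested and 0 passed in edgeR for Ang II against Control, where 0.541% of all genes did. An unadjusted p under 0.05 was found for 1, where 17.6% of all genes had it, and DESeq2 called 0. All 5 values were positive, with a median of 1.21 on the log2 scale. Serpina3g (1.21 ± 0.43, edgeR adjusted p = 0.215), Serpina3h (1.24 ± 0.61, adjusted p = 0.313) and Serpina3i (1.40 ± 0.87, adjusted p = 0.403) had the smallest p. Serpina3g did not exceed 1.54 CPM and Serpina3i 2.29 CPM in any library, against 14.9 CPM in the lowest library for Serpina3n. Serpina3c, the highest of the 10 paralogs, reached 2.62 CPM, in EHP-101 replicate 2. Serpina3h is annotated as a transcribed pseudogene. Among the 4 lists, edgeR called 0 genes for EHP-101 against Ang II and for losartan against either group. Of the 23 STAT3 target and acute phase genes, 6 had an unadjusted p under 0.05 for EHP-101 against Ang II, where 7.22% of all genes did, and 7 for losartan against Ang II, where 8.41% did. DESeq2 called 0 and 2 of them, beside 61 and 108 of all genes.

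**Figure D5:**
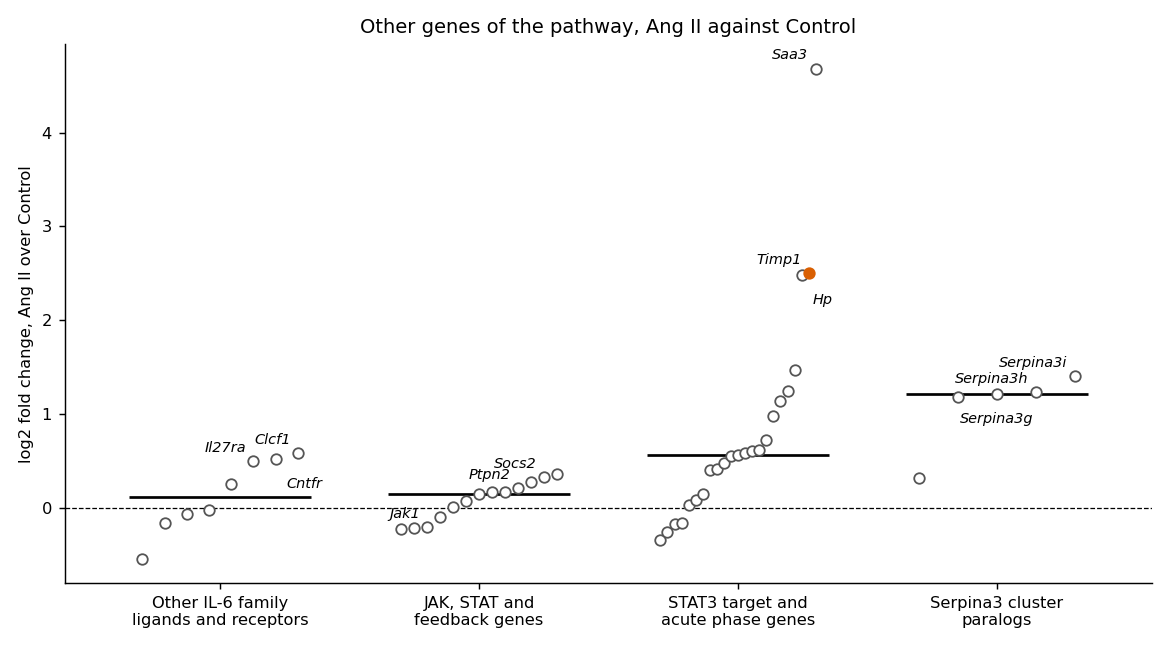
Log2 fold change of Ang II over Control (vertical axis) for each tested gene of the 4 lists of other pathway genes (horizontal axis), with a bar at each list's median, the median of all tested genes as a dashed line and filled points for genes past the edgeR threshold. The filled point is Timp1 at 2.50.

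The genes whose log2 CPM followed a member most closely over the 12 libraries were read from 12316 tested genes with a mean of at least 1 CPM. For Serpina3n they were Adam8, a membrane protease (Pearson r = 0.956), Nucb2 (0.949), Lox, a collagen cross-linking enzyme (0.935), Apbb1ip (0.932) and Sprr1a (0.931). Lox averaged 54.8 CPM with EHP-101, 22.8 with losartan, 60.6 with Ang II alone and 5.28 in Control. For Socs3 they were Lhfp (0.923), Tmem45a (0.913), Tubb3 (0.907) and B3gnt9 (0.907). Tmem45a averaged 9.04 CPM with EHP-101, 5.23 with losartan, 13.3 with Ang II alone and 5.69 in Control, in the order of Socs3. These correlations describe the 12 libraries, which share groups and total depth.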

How the data were processed

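The authors deposited raw read counts, 1 column per heart library and 12 in all, in a single table of genes. Per the labels' protocols, RNA was extracted with Qiazol, and 300 ng per sample went through poly(A) selection and the TruSeq RNA v2 kit, which keeps no strand, to give reads of 50 bp from 1 end. Per the submitters' processing notes, fastp 0.20.0, HISAT2 2.1.0, featureCounts 2.0.0, edgeR 3.30.0 and the build GRCm38 were used.

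Symbols were attached to 47310 of 47729 genes through GENCODE M21, which also gave positions. In R 4.3.3 with edgeR 4.0.16, filterByExpr left 15336 genes and TMM scaled the libraries. All 12 libraries entered a robust quasi-likelihood fit that gave each group its own mean, and the common biological coefficient of variation was 0.189. Contrasts used the two-sided quasi-likelihood F test with Benjamini-Hochberg adjustment over all tested genes at 0.05. The SE is the absolute log2 fold change over the square root of F and restates the test. Log2 CPM for correlations had a prior count of 2. The fit was tested on simulated data. Motifs were searched in RefSeq windows of GRCm38.p6.

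The members and lists were chosen with earlier results of these data known. Named genes were the 9 members, up to 3 genes of each pathway list with the smallest p for Ang II against Control, any list gene called, and the 5 genes most correlated with Serpina3n and with Socs3. Mt1, Mt2, Cebpd, Ccr2 and Serpina3c were named after their values were seen. Of the genes that the rule gives, 2 are not reported. The alternatives, run singly, were DESeq2 1.42.0, library size alone, RLE factors, no filter on low counts, a blocking term for the replicate number, a minimum mean of 5 CPM, fits of only the 2 groups compared, and each library left out.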

Additional observations from a re-analysis of the deposited data

How the results depend on the processing

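With 3 libraries a group, calls moved with the analysis, and the cause was not tested. For Ang II against Control, 83 genes were called, against 513 in DESeq2, 167 with no filter on low counts, 20 with only the 2 groups compared and 8 to 151 without single libraries. The 2 members called became 4 in DESeq2 and 0 with only the 2 groups or with the replicate block, and 0 to 3 without single libraries. With no filter the count was 2 again, but the pair was Socs3 and Il11. The 1 STAT3 target called became 2 in DESeq2, 0 with no filter, the replicate block or only the 2 groups, and 0 to 1 without single libraries. For EHP-101 against Ang II, the 0 genes called became 61 in DESeq2, 10 with no filter and 3 with only the 2 groups. For losartan against Ang II, the 0 genes became 108 in DESeq2, 30 with no filter, 1 with only the 2 groups and 0 to 3 without single libraries. The 0 members there became 2 in DESeq2 and 1 with no filter, and the 0 STAT3 targets 2 in DESeq2. For EHP-101 against Control, the 61 genes became 22 with library size alone, 492 in DESeq2, 158 with no filter, 36 with the replicate block, 14 with only the 2 groups and 5 to 62 without single libraries. The 1 member there became 2 in DESeq2, 0 with library size alone, the replicate block or only the 2 groups, and 0 to 2 without single libraries. With no filter it was again 1 member, but Osmr in place of Serpina3n. DESeq2 also called 1 kinase or feedback gene and 1 STAT3 target in that comparison, and 22 genes for losartan against Control, each against 0.

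The labels do not state whether replicate numbers pair the samples. The correlations that follow, from 3 libraries a group, cannot settle it. Of 18 pairs of libraries with the same number, 4 correlated above 0.1 in their deviations from group means, with a range of -0.327 to 0.33, and 6 of 12 libraries correlated best with their own number. Under the replicate block, 57 genes were called for Ang II against Control.

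Signs turned only among log2 fold changes that were not called, and not all of these stayed near 0. For EHP-101 against Ang II, library size alone gave -0.12 for Ctf1 and -0.17 for Serpina3n, and a mean of at least 5 CPM gave -0.0080 for Serpina3n. Without single libraries the ranges there were -0.11 to 0.16 for Ctf1, -0.15 to 0.0236 for Il6st, -0.062 to 0.0529 for Stat3 and -0.49 to 0.52 for Serpina3n. For EHP-101 against Control they were -0.46 to 0.0169 for Lif, -0.0198 to 0.22 for Il6st and -0.0132 to 0.14 for Stat3, and for losartan against Control -0.0523 to 0.18 for Il6st and -0.18 to 0.0019 for Stat3. Library size alone shifted the median of all genes by 0.17 for Ang II against Control, with 89 higher and 1 lower call in place of 79 and 4. A mean of at least 5 CPM removed Il6, Lif and Ctf1, the fits of only the 2 groups removed Il6 against Control for both treatments, and DESeq2 gave no adjusted p for Il11 or for Il6 in losartan against Control. At a few reads per library, Il11 and the Control level of Il6 are limited by depth.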
